A study of Mus musculus with 24 samples.

Results

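The genes described here are 49 mouse genes whose products license replication origins, unwind and copy DNA, supply deoxynucleotides or govern entry into S phase. They were chosen by name and function, as 49 of the 18071 protein-coding genes that have a probe on the array. The list holds the Mcm2 to Mcm7 helicase genes, Orc1, Orc6, Cdc6 and Cdt1 (origin licensing), Mcm10, Cdc7, Dbf4, Cdc45 and Gins1 to Gins4 (helicase activation), Pola1, Pola2, Prim1, Prim2, Pold1, Pold2, Pole and Pole2 (polymerases and primase), Pcna and Rfc1 to Rfc5 (sliding clamp and its loader), Rpa1 to Rpa3 (single-strand binding), Lig1 and Fen1 (Okazaki fragment joining), Rrm1, Rrm2, Tyms and Tk1 (nucleotide supply), Ccne1, Ccne2 and E2f1 (G1/S regulators), Chaf1a, Chaf1b and Uhrf1 (chromatin assembly and maintenance), and Tipin and Timeless (fork protection). The array names Orc1, Orc6, Cdc45, Gins2 and Rfc1 by older symbols (Orc1l, Orc6l, Cdc45l, 4833427B12Rik and Recc1).

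RNA from mouse embryonic fibroblasts was hybridised to 24 one-color whole-genome arrays in 2 sets that were scanned and processed separately. The fibroblasts were immortalized Ku70-/- cells, so every group, controls included, lacks the Ku70 subunit that binds broken DNA ends in end joining. The first set had 15 arrays in 5 groups of 3: untreated control, KBrO3 4 hr, KBrO3 24 hr, KBrO3 + BPA 4 hr and KBrO3 + BPA 24 hr, and the second had 9 arrays in 3 groups of 3: untreated control, BPA 4 hr and BPA 24 hr. Potassium bromate (KBrO3), an oxidant that damages DNA bases, was given at 20 mM for 1 hr, after which the cells repaired for 3 or 23 hr. Bisphenol A (BPA), a monomer of polycarbonate plastic, was given at 150 uM, starting 1 hr before KBrO3 in the co-exposed cells and staying in the medium until harvest. The control arrays of the first set carry only a 4 hr label and those of the second carry no time, so hours in culture and treatment cannot be told apart in a comparison of a 24 hr group with control or of 24 hr with 4 hr. The replicates come from repeated exposures of 1 cell line, so the p-values describe the spread between arrays within groups of that line. All 3 KBrO3 4 hr arrays lie on 1 slide and all 3 KBrO3 + BPA 4 hr arrays on another. The spread within these 2 groups therefore holds no slide difference, which the p-values do not measure.

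DNA is copied once per cell cycle in a fixed order. In G1 phase the origin recognition complex, Cdc6 and Cdt1 load the ring of Mcm2 to Mcm7 onto origins, and cyclin E with its kinase drives the cell past the G1/S boundary while E2F transcription factors switch on most of these genes. At the start of S phase the Cdc7-Dbf4 kinase, Cdc45 and the GINS complex turn the loaded ring into a moving helicase, and primase, 3 DNA polymerases, the Pcna clamp, the Rfc loader, Rpa and the ligase-nuclease pair Lig1 and Fen1 then build the new strands. Cells whose DNA is damaged can hold at these steps, and p21 (Cdkn1a) is the best known inhibitor of both the cyclin E kinase and Pcna.

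All 49 genes were well above background on all 24 arrays, and no probe of theirs was saturated. Signal is given as log2 of the spot's processed signal relative to the 75th percentile of its array, so 0 is the level of that percentile, and a level cannot be set against that of another gene because probes differ in brightness. On first-set arrays 57.7 to 68.1% of spots were well above background, and on second-set arrays 76.4 to 79.4%. Of 10 fibroblast markers 9 were well above background on all 15 arrays of the first set (Thy1 on 10 of them), and their summed level, on a linear scale where the 75th percentile is 1, was 1831 to 1942 in control, 1680 to 1771 at KBrO3 4 hr, 1334 to 1367 at KBrO3 + BPA 4 hr, 702 to 789 at KBrO3 24 hr and 493 to 573 at KBrO3 + BPA 24 hr. Of 10 markers of other cell types 2 (Cd3e, Tubb3) were above background on all 15 and 4 (Cdh1, Ptprc, Pecam1, Cdh5) on none, while the epithelial gene Krt18 was above it on 11, the muscle gene Myog on 4, and Epcam and Adgre1 on 1 each. On the 9 second-set arrays all 10 fibroblast markers were above background on every array, as were Cdh1, Krt18, Cd3e, Myog and Tubb3, with Cdh5 on 8, Adgre1 on 6, Epcam on 2 and the leukocyte gene Ptprc and the endothelial gene Pecam1 on none. The summed level of the 10 markers of other cell types was 0.429 to 0.508 in control, 0.566 to 0.662 at KBrO3 4 hr, 0.70 to 0.772 at KBrO3 + BPA 4 hr, 0.467 to 0.591 at KBrO3 24 hr, 0.387 to 0.428 at KBrO3 + BPA 24 hr and 0.429 to 0.765 over the second set. In the second set the summed fibroblast level was 687 to 789 in control, 677 to 803 at BPA 4 hr and 556 to 675 at BPA 24 hr. The second-set control thus lay below the first-set control. The part that these marker levels play in the results below was not tested. In a bulk sample a smaller share of cells in S phase and less RNA per cell cannot be told apart. The Ku70 gene Xrcc6 has 1 probe, which was well above background on all 15 and all 9 arrays; whether it lies inside the deleted part is not given in the sources used here, so it does not check the genotype.

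Promoter sequences are shown for Orc1, Cdc6 and Mcm5, which stood among the strong risers, and for Mcm6, the ring subunit that lay slightly below control at 4 hr. All 4 carry an E2F-type word. Tk1, the gene with the deepest fall, is shown because its window carries none. They are the 200 bases before the annotated start, 5' to 3' on the coding strand, from RefSeq on GRCm38.p6: Orc1 at chr4:108579254-108579453 on the plus strand, Cdc6 at chr11:98907951-98908150 on the plus strand, Mcm5 at chr8:75109309-75109508 on the plus strand, Mcm6 at chr1:128359706-128359905 on the minus strand and Tk1 at chr11:117826015-117826214 on the minus strand. Capitals mark the E2F-type words TTTCCCGC, TTTCGCGC, TTTGCCGC or TTTGGCGC on either strand, and in Mcm5 and Mcm6 a pair of words overlap.
Orc1: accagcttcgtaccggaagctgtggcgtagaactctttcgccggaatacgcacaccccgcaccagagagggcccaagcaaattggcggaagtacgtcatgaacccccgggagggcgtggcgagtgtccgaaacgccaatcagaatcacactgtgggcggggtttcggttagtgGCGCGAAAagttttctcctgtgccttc
Cdc6: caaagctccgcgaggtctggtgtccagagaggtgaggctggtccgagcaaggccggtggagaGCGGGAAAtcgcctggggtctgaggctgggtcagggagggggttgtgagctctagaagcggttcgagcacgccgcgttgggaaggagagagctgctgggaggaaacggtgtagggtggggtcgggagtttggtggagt
Mcm5: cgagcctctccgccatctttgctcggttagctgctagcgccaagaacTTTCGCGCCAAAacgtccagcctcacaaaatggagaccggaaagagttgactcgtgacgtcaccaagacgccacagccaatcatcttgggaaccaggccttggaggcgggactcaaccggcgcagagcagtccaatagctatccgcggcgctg
Mcm6: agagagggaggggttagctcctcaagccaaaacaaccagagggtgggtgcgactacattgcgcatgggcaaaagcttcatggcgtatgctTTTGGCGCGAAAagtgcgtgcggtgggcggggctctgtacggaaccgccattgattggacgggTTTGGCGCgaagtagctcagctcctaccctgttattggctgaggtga
Tk1: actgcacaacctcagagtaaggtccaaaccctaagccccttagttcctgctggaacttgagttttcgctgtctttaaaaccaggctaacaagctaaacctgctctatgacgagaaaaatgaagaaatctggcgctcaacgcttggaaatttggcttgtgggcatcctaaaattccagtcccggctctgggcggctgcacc

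RefSeq promoter entries were found for 40 of the 49 genes, with 47 promoters of 300 bases (250 before and 50 after the start). An E2F-type word was present in 14 of the 47, or 29.8%, against 2.27% of all 32851 promoters of the same length, and the 14 genes were Cdc6, Cdt1, Gins3, Lig1, Mcm3, Mcm5, Mcm6, Mcm7, Orc1, Pola1, Pold1, Pole2, Rfc3 and Uhrf1. The word CCAAT, read on both strands, was present in 53.2% of these promoters and 37.4% of all, and TTTGAA, the core of the element that is best known from mitotic genes, in 17.0% and 17.9%. A match of letters describes the window and is not a binding site. The 14 genes included strong risers (Orc1, Cdc6, Mcm5, Cdt1) and genes that fell at 4 hr (Mcm6, Pold1, Pole2, Lig1), of which Mcm6 and Lig1 turned sign at KBrO3 4 hr with another background correction, normexp. No E2F word was found in the windows of the strong risers Rrm2, Ccne1 and Mcm10.

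At 4 hr after the start of KBrO3 the 49 genes moved in both directions, also within most roles. Of the 49, 25 rose and 17 fell against control at KBrO3 4 hr (adjusted p below 0.05, limma with Benjamini-Hochberg adjustment over all probes tested), where 34.6% of 13852 genes tested rose and 38% fell. At KBrO3 + BPA 4 hr 23 rose and 17 fell, where 39.8% of genes rose and 40.7% fell. All 4 licensing genes rose in both treatments, and 5 of the 8 polymerase and primase genes fell in each. At 24 hr more genes were higher than lower, with 32 of 49 higher and 7 lower at KBrO3 24 hr (31.3% and 38.2% of all genes) and 37 higher and 2 lower at KBrO3 + BPA 24 hr (34.5% and 38%). The median log2 difference over the 49 genes was 0.19 at KBrO3 4 hr and 0.046 at KBrO3 + BPA 4 hr, beside 0.021 and 0.0089 over all genes. At 24 hr it was 0.36 and 0.39, beside -0.068 and -0.062. These 4 comparisons share their 3 control arrays and so are not independent.

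**Figure D1:**
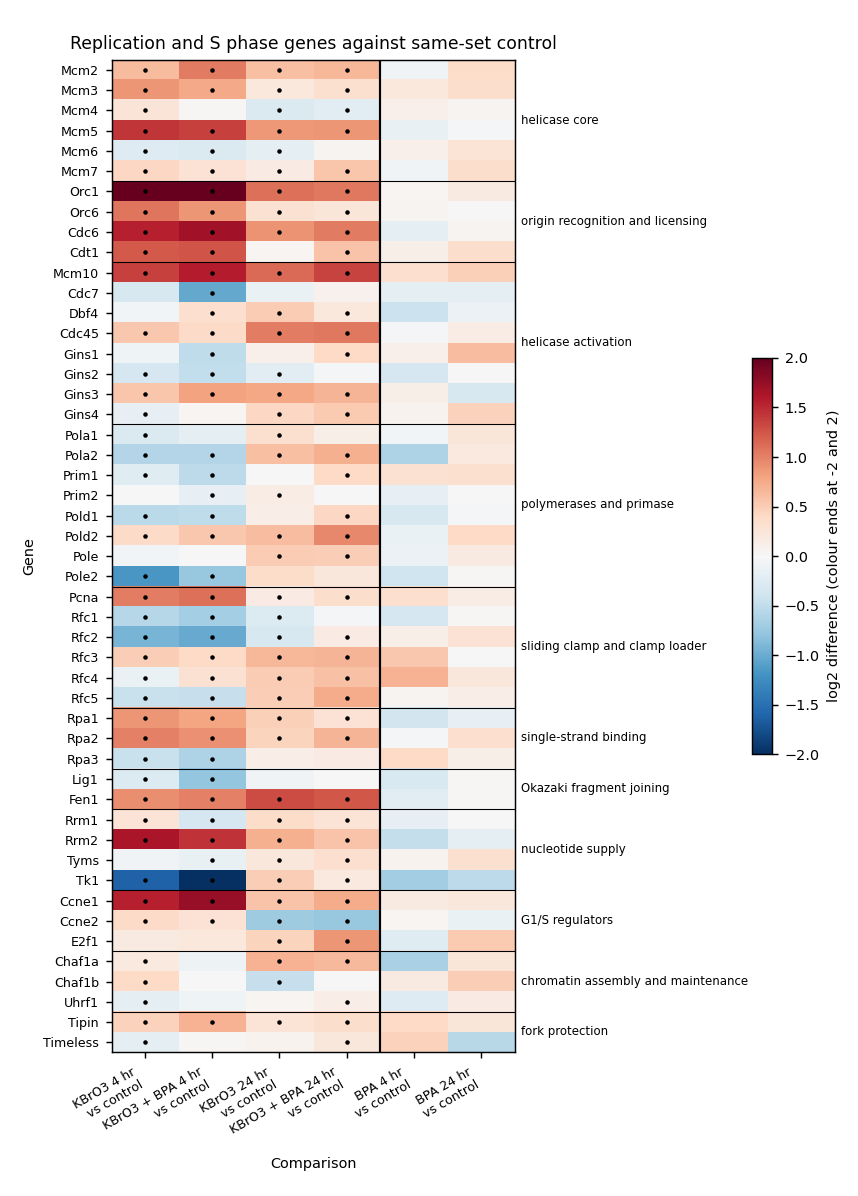
Log2 difference from the control arrays of the same set for each of the 49 genes (one line each, ordered by role) in the 6 treated groups, with a dot where adjusted p is below 0.05. The first-set columns carry 42, 39, 40 and 39 dots for KBrO3 4 hr, KBrO3 24 hr, KBrO3 + BPA 4 hr and KBrO3 + BPA 24 hr, and the BPA columns carry none.

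The split between rising and falling genes at 4 hr depended on the scaling of the arrays. At KBrO3 4 hr the 25 risers and 17 fallers became 20 and 22 under quantile normalization, where 31.7% of all genes rose and 42.3% fell. With normexp background correction they became 24 and 4, where 24.1% of all genes rose and 28.9% fell. At KBrO3 + BPA 4 hr the 23 and 17 became 18 and 20 with scaling to the array median, 22 and 22 under quantile normalization and 22 and 7 with normexp. Of all genes 33.2%, 37.15% and 24.3% rose at these settings and 44.3%, 44.6% and 32.3% fell. At 24 hr risers outnumbered fallers under all 3, in the order median, quantile and normexp. With KBrO3 they were 35 to 1, 36 to 4 and 35 to 1. Of all genes 36.2%, 35.9% and 23.7% rose there and 27.1%, 34.4% and 42.1% fell. With KBrO3 + BPA they were 46 to 1, 36 to 2 and 38 to 1. Of all genes 47.96%, 37.4% and 27.45% rose there and 22.6%, 33.4% and 41.3% fell. Scaling to the median moved the median of all genes at KBrO3 + BPA 24 hr to 0.26, and the differences of these genes moved with it. Within the 1 slide that held both KBrO3 4 hr (3 arrays) and control (1 array), all 42 genes called in that comparison had the same sign, with a median over the 49 of 0.13. The other treated groups of the first set shared no slide with control, so slide and group cannot be told apart there.

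All 4 origin licensing genes rose at 4 hr, where 34.6% (KBrO3) and 39.8% (KBrO3 + BPA) of all genes did, and Orc1 rose the most of the 49. Orc1, which encodes the largest subunit of the origin recognition complex, read -2.04, -2.04 and -1.98 on the control arrays, 0.56, 0.68 and 0.68 on the KBrO3 4 hr arrays, 0.73, 0.71 and 0.79 on the KBrO3 + BPA 4 hr arrays, -0.95, -0.87 and -0.92 on the KBrO3 24 hr arrays and -0.96, -1.04 and -0.92 on the KBrO3 + BPA 24 hr arrays. Every treated array lay above every control array, with the 4 hr arrays highest and the 24 hr arrays between. The difference from control was 2.66 (SE 0.048, adjusted p = 4.26e-13) at KBrO3 4 hr, a 6.32-fold rise, and 2.76 (SE 0.048, adjusted p = 2.41e-13) at KBrO3 + BPA 4 hr. At 24 hr it was 1.11 (SE 0.048, adjusted p = 1.53e-09) and 1.05 (SE 0.048, adjusted p = 1.58e-09). Cdc6, the ATPase that loads the Mcm ring together with Cdt1, read -0.50, -0.50 and -0.47 on the control arrays, 1.05, 1.06 and 1.06 on the KBrO3 4 hr arrays, 1.17, 1.18 and 1.21 on the KBrO3 + BPA 4 hr arrays, 0.36, 0.46 and 0.41 on the KBrO3 24 hr arrays and 0.60, 0.55 and 0.46 on the KBrO3 + BPA 24 hr arrays. As for Orc1, its 4 hr arrays were highest and its 24 hr arrays lay between, with no overlap between the treated and control arrays. Its log2 differences were 1.55 (SE 0.041, adjusted p = 8.41e-12) and 1.68 (SE 0.041, adjusted p = 3.28e-12) at 4 hr. At 24 hr they were 0.91 (SE 0.041, adjusted p = 2.08e-09) and 1.03 (SE 0.041, adjusted p = 4.07e-10). A dimmer Cdc6 probe gave -0.18 (SE 0.069, adjusted p = 0.0331) at KBrO3 24 hr, a fall, and -0.13 (adjusted p = 0.102) at KBrO3 + BPA 24 hr. The 24 hr rise was thus seen with the brighter of these probes.

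Cdt1, the loader that geminin blocks outside G1, read 4.97, 4.97 and 4.93 on the control arrays, 6.22, 6.2 and 6.13 on the KBrO3 4 hr arrays, 6.21, 6.23 and 6.23 on the KBrO3 + BPA 4 hr arrays, 4.99, 4.99 and 5.04 on the KBrO3 24 hr arrays and 5.6, 5.6 and 5.41 on the KBrO3 + BPA 24 hr arrays. The 6 arrays of the 4 hr groups stood highest, the KBrO3 24 hr arrays lay barely above control and the KBrO3 + BPA 24 hr arrays lay between. Its difference from control was 1.23 (SE 0.051, adjusted p = 3.91e-10) at KBrO3 4 hr and 1.26 (SE 0.051, adjusted p = 2.41e-10) at KBrO3 + BPA 4 hr. At 24 hr it was 0.045 (SE 0.051, adjusted p = 0.452) with KBrO3, which did not pass, and 0.58 (SE 0.051, adjusted p = 6.47e-07) with KBrO3 + BPA. Orc6, the smallest subunit of the origin recognition complex, rose by 1.07 and 0.88 on the log2 scale at 4 hr and by 0.31 and 0.25 at 24 hr, with all treated arrays above control.

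The 6 subunits of the helicase ring did not move as a block. Mcm5 read 3.55, 3.56 and 3.66 on the control arrays, 5.02, 5.03 and 5.02 on the KBrO3 4 hr arrays, 4.92, 4.98 and 4.95 on the KBrO3 + BPA 4 hr arrays, 4.49, 4.45 and 4.45 on the KBrO3 24 hr arrays and 4.53, 4.5 and 4.38 on the KBrO3 + BPA 24 hr arrays. All 12 treated arrays lay above control, the 4 hr arrays highest. Its differences were 1.43 (SE 0.045, adjusted p = 3.3e-11) and 1.36 (SE 0.045, adjusted p = 3.89e-11) at 4 hr, or 2.70-fold and 2.57-fold, and 0.87 and 0.88 at 24 hr. Mcm2 read 2.42, 2.37 and 2.39 on the control arrays, 3.05, 3.02 and 3.01 on the KBrO3 4 hr arrays, 3.43, 3.48 and 3.39 on the KBrO3 + BPA 4 hr arrays, 3.07, 2.98 and 2.95 on the KBrO3 24 hr arrays and 3.05, 3.01 and 3.13 on the KBrO3 + BPA 24 hr arrays. The KBrO3 + BPA 4 hr arrays were the highest and the other 3 treated groups lay close together. Mcm2 was 0.63 (SE 0.045, adjusted p = 5.87e-08) above control at KBrO3 4 hr and 1.04 (SE 0.045, adjusted p = 4.56e-10) at KBrO3 + BPA 4 hr.

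Mcm6 was the ring subunit that fell at 4 hr. It read 6.66, 6.67 and 6.51 on the control arrays, 6.28, 6.39 and 6.4 on the KBrO3 4 hr arrays, 6.3, 6.35 and 6.29 on the KBrO3 + BPA 4 hr arrays, 6.39, 6.43 and 6.46 on the KBrO3 24 hr arrays and 6.7, 6.72 and 6.58 on the KBrO3 + BPA 24 hr arrays. The 4 hr and KBrO3 24 hr arrays lay below control, and the KBrO3 + BPA 24 hr arrays overlapped control. Its differences were -0.25 (SE 0.057, adjusted p = 0.0015) and -0.30 (SE 0.057, adjusted p = 0.000412) at 4 hr and -0.18 (SE 0.057, adjusted p = 0.0124) and 0.057 (SE 0.057, adjusted p = 0.383) at 24 hr. With normexp the KBrO3 4 hr value turned to 0.038 and the KBrO3 24 hr value to 0.15, and the KBrO3 24 hr call was lost without control replicate 2 (adjusted p = 0.0518). Mcm4 read 5.72, 5.76 and 5.67 on the control arrays, 5.99, 5.95 and 5.97 on the KBrO3 4 hr arrays, 5.75, 5.71 and 5.78 on the KBrO3 + BPA 4 hr arrays, 5.35, 5.48 and 5.47 on the KBrO3 24 hr arrays and 5.52, 5.51 and 5.48 on the KBrO3 + BPA 24 hr arrays. It was above control at KBrO3 4 hr, overlapped it at KBrO3 + BPA 4 hr and lay below it in both 24 hr groups. Its difference at KBrO3 4 hr, 0.25 (SE 0.043, adjusted p = 0.000189), turned to -0.11 under quantile normalization, and its fall at KBrO3 + BPA 24 hr, -0.22 (SE 0.043, adjusted p = 0.000675), turned to 0.10 with median scaling and 0.092 with normexp. Its fall at KBrO3 24 hr, -0.28 (SE 0.043, adjusted p = 8.9e-05), turned to 0.075 with normexp. Mcm3 and Mcm7 rose in all 4 comparisons with control, Mcm3 by 0.88 and 0.76 at 4 hr and 0.21 and 0.32 at 24 hr, and Mcm7 by 0.41 and 0.29 and then 0.17 and 0.56. The Mcm3 call at KBrO3 24 hr was lost without KBrO3 24 hr replicate 1 (0.13, adjusted p = 0.106) and without control replicate 3 (0.16, adjusted p = 0.102).

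**Figure D2:**
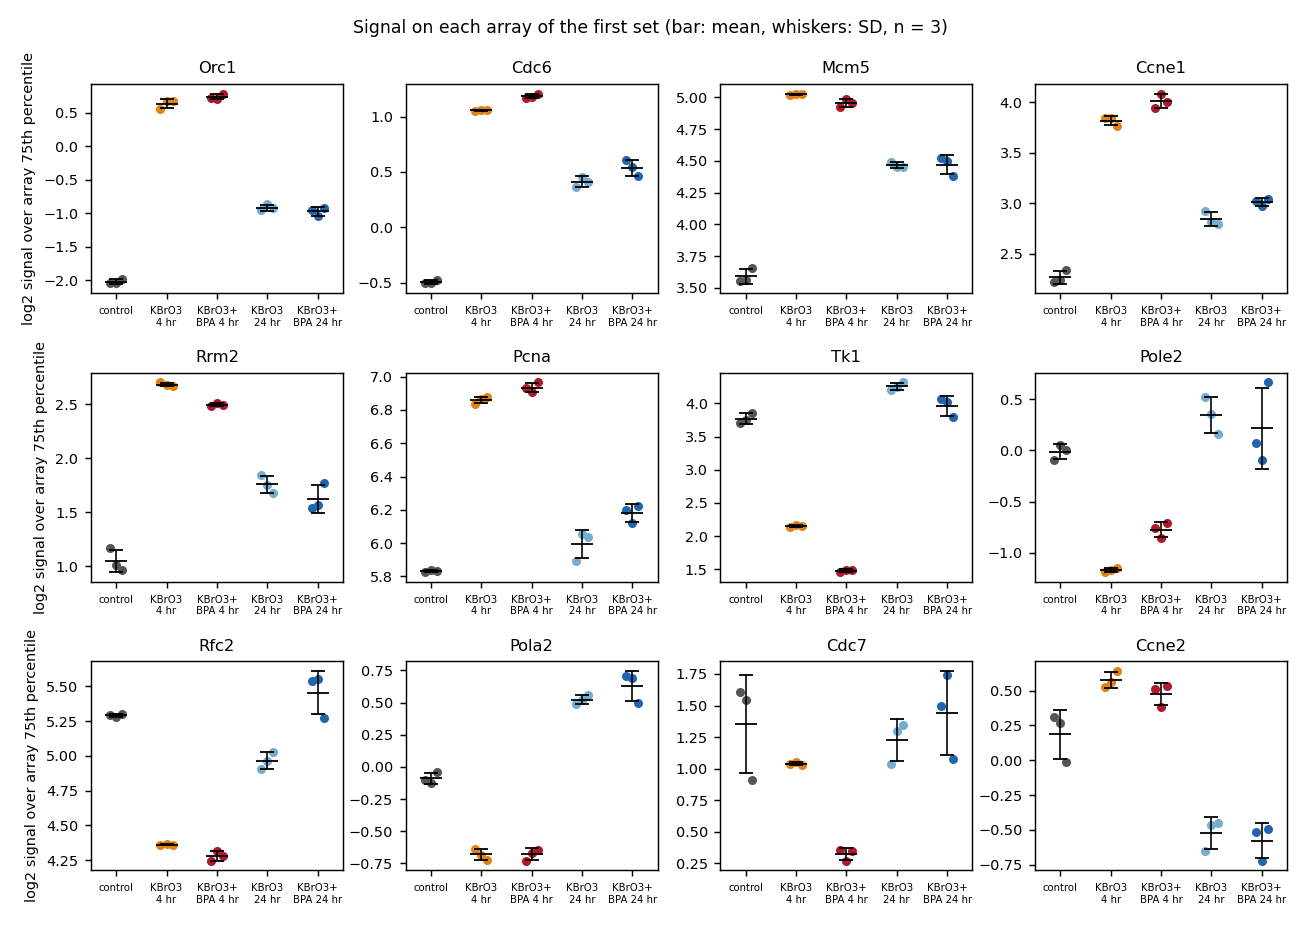
Log2 signal relative to the 75th percentile of the array for 12 of the genes on each of the 15 first-set arrays, by group, with a bar at the group mean. Orc1, Cdc6, Mcm5, Ccne1, Rrm2 and Pcna peak in the 4 hr groups, while Tk1, Pole2, Rfc2 and Pola2 are lowest there.

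Among the genes that activate the helicase, Mcm10 and Cdc45 rose and the GINS genes diverged. Mcm10, which helps the loaded ring to start unwinding, read 2.85, 2.88 and 2.88 on the control arrays, 4.25, 4.23 and 4.24 on the KBrO3 4 hr arrays, 4.42, 4.45 and 4.43 on the KBrO3 + BPA 4 hr arrays, 3.97, 4.02 and 4.03 on the KBrO3 24 hr arrays and 4.23, 4.31 and 4.12 on the KBrO3 + BPA 24 hr arrays. All treated arrays exceeded all control arrays. The differences were 1.37 (SE 0.044, adjusted p = 4.11e-11) and 1.57 (SE 0.044, adjusted p = 1.03e-11) at 4 hr and 1.14 (SE 0.044, adjusted p = 5.36e-10) and 1.35 (SE 0.044, adjusted p = 6.98e-11) at 24 hr. Cdc45, a core subunit of the active helicase, read -0.12, -0.23 and -0.11 on the control arrays, 0.40, 0.37 and 0.37 on the KBrO3 4 hr arrays, 0.20, 0.28 and 0.22 on the KBrO3 + BPA 4 hr arrays, 0.86, 0.88 and 0.88 on the KBrO3 24 hr arrays and 0.90, 0.98 and 0.84 on the KBrO3 + BPA 24 hr arrays. It was above control in every treated group and higher at 24 hr than at 4 hr. The rise was 0.53 (SE 0.045, adjusted p = 3.34e-07) and 0.38 (SE 0.045, adjusted p = 6.43e-06) at 4 hr and 1.03 (SE 0.045, adjusted p = 1.66e-09) and 1.06 (SE 0.045, adjusted p = 8.08e-10) at 24 hr. Of the 4 GINS genes, Gins3 rose in all 4 comparisons (0.56, 0.80, 0.77 and 0.69 in the order KBrO3 4 hr, KBrO3 + BPA 4 hr, KBrO3 24 hr, KBrO3 + BPA 24 hr). Gins2 fell in the first 3 of these (-0.34, -0.49 and -0.21) and read -0.029 in the fourth. The third of these falls was lost when any of 4 single arrays was left out (adjusted p 0.0548 to 0.0984) and turned to 0.070 with normexp. Gins4 fell by 0.16 at KBrO3 4 hr, read 0.046 at KBrO3 + BPA 4 hr and rose by 0.41 and 0.53 at 24 hr. The 4 hr fall of Gins4 was lost when any of 4 single arrays was left out (adjusted p 0.0539 to 0.0767) and turned to 0.049 with normexp.

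Gins1 read 2.08, 2.05 and 2.01 on the control arrays, 1.95, 1.99 and 1.96 on the KBrO3 4 hr arrays, 1.53, 1.52 and 1.58 on the KBrO3 + BPA 4 hr arrays, 2.05, 2.17 and 2.24 on the KBrO3 24 hr arrays and 2.47, 2.53 and 2.32 on the KBrO3 + BPA 24 hr arrays. Its KBrO3 + BPA 4 hr arrays were the lowest of all and its KBrO3 + BPA 24 hr arrays the highest. It fell against control at KBrO3 + BPA 4 hr, -0.51 (SE 0.059, adjusted p = 5.45e-06), and rose at KBrO3 + BPA 24 hr, 0.39 (SE 0.059, adjusted p = 6.68e-05), while KBrO3 alone gave -0.079 (SE 0.059, adjusted p = 0.242) and 0.11 (SE 0.059, adjusted p = 0.131). A second Gins1 probe was called in the last pair too, -0.28 (adjusted p = 6.16e-05) at KBrO3 4 hr and 0.19 (adjusted p = 0.00154) at KBrO3 24 hr, with the signs of the co-exposed groups. Cdc7, the kinase that fires origins, read 1.61, 1.54 and 0.91 on the control arrays, 1.04, 1.05 and 1.03 on the KBrO3 4 hr arrays, 0.35, 0.27 and 0.35 on the KBrO3 + BPA 4 hr arrays, 1.04, 1.3 and 1.35 on the KBrO3 24 hr arrays and 1.5, 1.74 and 1.08 on the KBrO3 + BPA 24 hr arrays. The KBrO3 + BPA 4 hr arrays stood below all others, the third control array lay below the other control arrays, and the remaining groups overlapped control. Its difference at KBrO3 + BPA 4 hr was -1.03 (SE 0.18, adjusted p = 0.000255). The 2 other Cdc7 probes gave -0.39 (SE 0.10, adjusted p = 0.00354) and 0.16 (SE 0.17, adjusted p = 0.39). Those 2 probes were both higher at KBrO3 24 hr, 0.59 (adjusted p = 0.000212) and 0.67 (adjusted p = 0.00423), where the brightest probe overlapped control. One of them also passed at KBrO3 4 hr, -0.31 (adjusted p = 0.0155), and at KBrO3 + BPA 24 hr, 0.46 (adjusted p = 0.00134). Dbf4, the subunit that activates Cdc7, read 0.63, 0.58 and 0.51 on the control arrays, 0.49, 0.53 and 0.52 on the KBrO3 4 hr arrays, 0.90, 0.83 and 0.98 on the KBrO3 + BPA 4 hr arrays, 0.92, 1.18 and 1.15 on the KBrO3 24 hr arrays and 0.81, 0.71 and 0.85 on the KBrO3 + BPA 24 hr arrays. It overlapped control at KBrO3 4 hr and lay above it in the other 3 groups, by 0.33 (SE 0.068, adjusted p = 0.000748) at KBrO3 + BPA 4 hr, 0.51 (SE 0.068, adjusted p = 3.13e-05) at KBrO3 24 hr and 0.22 (SE 0.068, adjusted p = 0.0137) at KBrO3 + BPA 24 hr. The last was lost without control replicate 3 (adjusted p = 0.0521), and a second Dbf4 probe read -0.036 (adjusted p = 0.695) there and fell at KBrO3 4 hr, -0.27 (adjusted p = 0.00649).

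Of the 8 polymerase and primase genes, 5 were lower in each 4 hr group and 5 were higher in each 24 hr group. Pole2, the second subunit of the leading-strand polymerase, read -0.10, 0.051 and 0.0058 on the control arrays, -1.19, -1.17 and -1.15 on the KBrO3 4 hr arrays, -0.76, -0.85 and -0.71 on the KBrO3 + BPA 4 hr arrays, 0.52, 0.36 and 0.16 on the KBrO3 24 hr arrays and 0.076, -0.091 and 0.67 on the KBrO3 + BPA 24 hr arrays. Both 4 hr groups lay wholly below control, the KBrO3 24 hr arrays lay above it and the KBrO3 + BPA 24 hr arrays overlapped it. The difference was -1.16 (SE 0.15, adjusted p = 2.24e-05), 2.23-fold lower, at KBrO3 4 hr and -0.76 (SE 0.15, adjusted p = 0.000673) at KBrO3 + BPA 4 hr, and the 24 hr values were 0.36 (SE 0.15, adjusted p = 0.058) and 0.23 (SE 0.15, adjusted p = 0.204). Pola2, a subunit of the priming polymerase, read -0.10, -0.12 and -0.040 on the control arrays, -0.63, -0.69 and -0.72 on the KBrO3 4 hr arrays, -0.73, -0.67 and -0.64 on the KBrO3 + BPA 4 hr arrays, 0.49, 0.52 and 0.56 on the KBrO3 24 hr arrays and 0.70, 0.69 and 0.50 on the KBrO3 + BPA 24 hr arrays. Its 4 hr arrays were all below control and its 24 hr arrays all above. It changed by -0.59 (SE 0.056, adjusted p = 9e-07) and -0.59 (SE 0.056, adjusted p = 8.06e-07) at 4 hr and by 0.61 (SE 0.056, adjusted p = 1.15e-06) and 0.72 (SE 0.056, adjusted p = 2.05e-07) at 24 hr. A second Pola2 probe was called in neither 4 hr group, with -0.066 (adjusted p = 0.652) and -0.28 (adjusted p = 0.0617), and rose in both 24 hr groups.

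Pold1, the catalytic subunit of the lagging-strand polymerase, fell by 0.54 at KBrO3 4 hr and 0.50 at KBrO3 + BPA 4 hr, and rose by 0.41 at KBrO3 + BPA 24 hr. Its partner Pold2 was the 1 gene of this group that rose at 4 hr, by 0.39 and 0.53, and it rose by 0.62 and 0.96 at 24 hr. Prim1, the catalytic primase subunit, fell at 4 hr by 0.24 and 0.52 and rose by 0.40 at KBrO3 + BPA 24 hr. Its KBrO3 4 hr value turned to 0.093 with normexp and was lost without control replicate 2 or KBrO3 4 hr replicate 3 (adjusted p 0.0502 to 0.055). Prim2, the large primase subunit, moved little (-0.015 and -0.17 at 4 hr, 0.14 and 0.0074 at 24 hr), and of these its fall at KBrO3 + BPA 4 hr and its rise at KBrO3 24 hr passed. The former turned to 0.077 with normexp, and a second Prim2 probe, not called in these 2, fell at KBrO3 + BPA 24 hr, -0.62 (adjusted p = 0.00501). Pola1, the catalytic subunit of the priming polymerase, changed by -0.29 (SE 0.11, adjusted p = 0.0364) at KBrO3 4 hr and 0.32 (SE 0.11, adjusted p = 0.023) at KBrO3 24 hr, and the calls were lost in 5 and 3 of the fits without 1 array (adjusted p 0.0641 to 0.109 and adjusted p 0.0588 to 0.0845). Pole, the catalytic subunit of the leading-strand polymerase, read -0.052 and -0.0015 at 4 hr, neither of which passed the test, and rose by 0.51 and 0.50 at 24 hr.

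The clamp gene Pcna rose at 4 hr, while 4 of the 5 loader genes fell with KBrO3 and 3 of the 5 with KBrO3 + BPA. Of all genes 38% and 40.7% fell in these comparisons. Pcna, the ring that tethers polymerases to DNA and is also a p53 target, read 5.82, 5.84 and 5.83 on the control arrays, 6.84, 6.87 and 6.87 on the KBrO3 4 hr arrays, 6.93, 6.91 and 6.97 on the KBrO3 + BPA 4 hr arrays, 5.9, 6.05 and 6.04 on the KBrO3 24 hr arrays and 6.2, 6.12 and 6.22 on the KBrO3 + BPA 24 hr arrays. The 4 hr arrays stood well above control and the 24 hr arrays slightly above it. Pcna rose by 1.03 (SE 0.045, adjusted p = 6.73e-10) and 1.1 (SE 0.045, adjusted p = 2.95e-10) on the log2 scale at 4 hr, about 2.04-fold and 2.15-fold, and by 0.16 and 0.35 at 24 hr. Rfc2, a loader subunit, read 5.29, 5.28 and 5.3 on the control arrays, 4.36, 4.37 and 4.36 on the KBrO3 4 hr arrays, 4.24, 4.32 and 4.28 on the KBrO3 + BPA 4 hr arrays, 4.9, 4.96 and 5.03 on the KBrO3 24 hr arrays and 5.54, 5.55 and 5.27 on the KBrO3 + BPA 24 hr arrays. Both 4 hr groups and KBrO3 24 hr lay below control, and KBrO3 + BPA 24 hr overlapped it. Its differences were -0.93 (SE 0.064, adjusted p = 4.69e-08) and -1.01 (SE 0.064, adjusted p = 1.81e-08) at 4 hr and -0.33 (SE 0.064, adjusted p = 0.000699) at KBrO3 24 hr, which turned to 0.0088 with normexp. A second Rfc2 probe also fell at 4 hr but read 0.095 (adjusted p = 0.325) at KBrO3 24 hr. The rise at KBrO3 + BPA 24 hr, 0.16 (SE 0.064, adjusted p = 0.0396), was lost when any of 5 single arrays (all 3 controls, KBrO3 + BPA 24 hr replicates 1 and 2) was left out, while it was 0.25 (adjusted p = 0.000123) without KBrO3 + BPA 24 hr replicate 3 and the second probe rose by 0.62 (adjusted p = 2.29e-05).

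Rfc5 read 3.42, 3.41 and 3.5 on the control arrays, 2.95, 3.03 and 3.03 on the KBrO3 4 hr arrays, 2.94, 2.97 and 3.04 on the KBrO3 + BPA 4 hr arrays, 3.84, 3.95 and 4.03 on the KBrO3 24 hr arrays and 4.29, 4.21 and 4.06 on the KBrO3 + BPA 24 hr arrays. Its 4 hr arrays were all below control and its 24 hr arrays all above. The changes were -0.44 (SE 0.065, adjusted p = 5.29e-05) and -0.46 (SE 0.065, adjusted p = 3.41e-05) at 4 hr and 0.50 (SE 0.065, adjusted p = 2.55e-05) and 0.74 (SE 0.065, adjusted p = 5.64e-07) at 24 hr. Rfc4 read 3.32, 3.38 and 3.36 on the control arrays, 3.24, 3.22 and 3.2 on the KBrO3 4 hr arrays, 3.64, 3.63 and 3.7 on the KBrO3 + BPA 4 hr arrays, 3.89, 3.9 and 3.82 on the KBrO3 24 hr arrays and 3.91, 3.9 and 4.03 on the KBrO3 + BPA 24 hr arrays. It was just below control at KBrO3 4 hr and above it in the other 3 groups. Its difference was -0.13 (SE 0.044, adjusted p = 0.0156) at KBrO3 4 hr, which turned to 0.14 with normexp and was lost without control replicate 2 or KBrO3 4 hr replicate 3 (adjusted p 0.0513 to 0.0548), 0.30 (SE 0.044, adjusted p = 4.47e-05) at KBrO3 + BPA 4 hr, and 0.51 and 0.59 at 24 hr. Rfc1, the large loader subunit, fell by 0.56 and 0.68 at 4 hr, whereas Rfc3 rose in all 4 comparisons by 0.39 to 0.68.

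Single-strand binding and fragment-joining genes also split. Rpa1, the large subunit of the protein that coats single-stranded DNA, read 2.32, 2.32 and 2.36 on the control arrays, 3.22, 3.21 and 3.22 on the KBrO3 4 hr arrays, 3.12, 3.08 and 3.15 on the KBrO3 + BPA 4 hr arrays, 2.83, 2.81 and 2.78 on the KBrO3 24 hr arrays and 2.66, 2.59 and 2.63 on the KBrO3 + BPA 24 hr arrays. All treated arrays were above control. The rise was 0.88 (SE 0.035, adjusted p = 2.47e-10) and 0.78 (SE 0.035, adjusted p = 5.95e-10) at 4 hr and 0.47 and 0.29 at 24 hr. Rpa2 rose with it, by 1.01 and 0.92 at 4 hr and 0.44 and 0.68 at 24 hr, while the small subunit Rpa3 fell by 0.44 and 0.61 at 4 hr. Fen1, the nuclease that trims Okazaki fragments and also serves base excision repair, read 1.16, 1.16 and 1.24 on the control arrays, 2.11, 2.13 and 2.1 on the KBrO3 4 hr arrays, 2.21, 2.25 and 2.16 on the KBrO3 + BPA 4 hr arrays, 2.49, 2.45 and 2.55 on the KBrO3 24 hr arrays and 2.45, 2.35 and 2.47 on the KBrO3 + BPA 24 hr arrays. It stayed above control at both times and was highest at 24 hr. Its difference was 0.93 (SE 0.045, adjusted p = 1.8e-09) and 1.01 (SE 0.045, adjusted p = 6.41e-10) at 4 hr and 1.31 (SE 0.045, adjusted p = 2.04e-10) and 1.24 (SE 0.045, adjusted p = 2.07e-10) at 24 hr. Lig1, the ligase that seals the fragments, fell by 0.27 at KBrO3 4 hr and 0.78 at KBrO3 + BPA 4 hr, and the first turned to 0.019 with normexp.

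Nucleotide supply held the deepest fall of the 49 genes at 4 hr, beside a strong rise. Tk1, the S phase thymidine kinase, read 3.71, 3.74 and 3.86 on the control arrays, 2.13, 2.17 and 2.16 on the KBrO3 4 hr arrays, 1.45, 1.49 and 1.49 on the KBrO3 + BPA 4 hr arrays, 4.2, 4.25 and 4.32 on the KBrO3 24 hr arrays and 4.07, 4.02 and 3.8 on the KBrO3 + BPA 24 hr arrays. The 4 hr arrays were far below control, lower still with BPA, the KBrO3 24 hr arrays were above control, and the KBrO3 + BPA 24 hr arrays overlapped it. Tk1 fell 3.07-fold at KBrO3 4 hr, -1.62 (SE 0.066, adjusted p = 3.35e-10), and 4.89-fold at KBrO3 + BPA 4 hr, -2.29 (SE 0.066, adjusted p = 1.29e-11). At 24 hr it was 0.49 (SE 0.066, adjusted p = 3.59e-05) with KBrO3 and 0.19 (SE 0.066, adjusted p = 0.0223) with KBrO3 + BPA, and the last was lost when any of 4 single arrays (control replicates 1 and 2, KBrO3 + BPA 24 hr replicates 1 and 2) was left out. Rrm2, the regulated subunit of ribonucleotide reductase, read 1.17, 1.01 and 0.97 on the control arrays, 2.7, 2.67 and 2.67 on the KBrO3 4 hr arrays, 2.48, 2.51 and 2.49 on the KBrO3 + BPA 4 hr arrays, 1.84, 1.75 and 1.68 on the KBrO3 24 hr arrays and 1.54, 1.56 and 1.77 on the KBrO3 + BPA 24 hr arrays. It lay above control in every treated group and was highest at 4 hr. Rrm2 rose by 1.63 (SE 0.069, adjusted p = 4.36e-10) and 1.45 (SE 0.069, adjusted p = 1.09e-09) at 4 hr and by 0.71 and 0.58 at 24 hr.

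Rrm1, the large reductase subunit, read 3.59, 3.53 and 3.57 on the control arrays, 3.82, 3.85 and 3.85 on the KBrO3 4 hr arrays, 3.23, 3.21 and 3.26 on the KBrO3 + BPA 4 hr arrays, 3.85, 3.93 and 4.0 on the KBrO3 24 hr arrays and 3.9, 3.87 and 3.72 on the KBrO3 + BPA 24 hr arrays. The KBrO3 + BPA 4 hr arrays lay below control and the other 3 treated groups above. Its difference was 0.28 (SE 0.052, adjusted p = 0.00037) at KBrO3 4 hr and -0.33 (SE 0.052, adjusted p = 8.04e-05) at KBrO3 + BPA 4 hr. Tyms, which makes thymidylate, differed from control by -0.063 at KBrO3 4 hr, which did not pass, fell by 0.14 at KBrO3 + BPA 4 hr and rose by 0.23 and 0.34 at 24 hr. A dimmer Tyms probe gave 0.86 (SE 0.17, adjusted p = 0.000565) at KBrO3 + BPA 4 hr and -0.43 (SE 0.17, adjusted p = 0.0391) at KBrO3 + BPA 24 hr, the opposite signs, while the remaining Tyms probe had the signs of the brightest. With normexp the fall at KBrO3 + BPA 4 hr turned to 0.15.

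The cyclin E genes parted at 24 hr. Ccne1 read 2.22, 2.24 and 2.34 on the control arrays, 3.85, 3.85 and 3.76 on the KBrO3 4 hr arrays, 3.95, 4.09 and 4.01 on the KBrO3 + BPA 4 hr arrays, 2.92, 2.82 and 2.8 on the KBrO3 24 hr arrays and 3.03, 2.97 and 3.05 on the KBrO3 + BPA 24 hr arrays. All treated arrays exceeded control, most at 4 hr. The rise was 1.55 (SE 0.053, adjusted p = 7.08e-11) and 1.74 (SE 0.053, adjusted p = 1.99e-11) at 4 hr, or 2.93-fold and 3.35-fold, and 0.58 and 0.75 at 24 hr. Ccne2 read 0.31, 0.27 and -0.014 on the control arrays, 0.52, 0.57 and 0.64 on the KBrO3 4 hr arrays, 0.51, 0.38 and 0.54 on the KBrO3 + BPA 4 hr arrays, -0.65, -0.46 and -0.45 on the KBrO3 24 hr arrays and -0.51, -0.72 and -0.50 on the KBrO3 + BPA 24 hr arrays. It was above control at 4 hr and below it at 24 hr with no overlap. Its difference was 0.39 (SE 0.094, adjusted p = 0.00247) and 0.29 (SE 0.094, adjusted p = 0.0136) at 4 hr, and -0.71 (SE 0.094, adjusted p = 2.8e-05) and -0.76 (SE 0.094, adjusted p = 1.26e-05) at 24 hr. The call at KBrO3 + BPA 4 hr was lost without control replicate 3 (0.19, adjusted p = 0.0623), and a second probe read -0.063 (adjusted p = 0.548) there. E2f1, the transcription factor that drives many of these promoters, read 0.92, 0.59 and 0.95 on the control arrays, 1.03, 1.0 and 0.95 on the KBrO3 4 hr arrays, 1.0, 1.12 and 0.98 on the KBrO3 + BPA 4 hr arrays, 1.24, 1.22 and 1.31 on the KBrO3 24 hr arrays and 1.79, 1.77 and 1.53 on the KBrO3 + BPA 24 hr arrays. It was not called at 4 hr, with differences of 0.17 (SE 0.094, adjusted p = 0.117) and 0.22 (SE 0.094, adjusted p = 0.0506). A second E2f1 probe rose in both 4 hr groups, by 0.48 (adjusted p = 8.52e-06) and 0.70 (adjusted p = 2.37e-07). The brighter probe rose at 24 hr, by 0.44 (SE 0.094, adjusted p = 0.00125) with KBrO3 and 0.88 (SE 0.094, adjusted p = 3.78e-06) with KBrO3 + BPA.

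Chromatin and fork genes changed by smaller amounts. Chaf1b, a subunit of the histone chaperone that follows the fork, read 4.91, 4.91 and 4.9 on the control arrays, 5.26, 5.32 and 5.32 on the KBrO3 4 hr arrays, 4.92, 4.89 and 4.94 on the KBrO3 + BPA 4 hr arrays, 4.33, 4.45 and 4.56 on the KBrO3 24 hr arrays and 5.01, 5.06 and 4.64 on the KBrO3 + BPA 24 hr arrays. It was above control at KBrO3 4 hr, below it at KBrO3 24 hr and overlapped it in both co-exposed groups. It changed by 0.39 (SE 0.094, adjusted p = 0.00228) at KBrO3 4 hr and -0.46 (SE 0.094, adjusted p = 0.000898) at KBrO3 24 hr, and by 0.0083 (SE 0.094, adjusted p = 0.938) and -0.0038 (SE 0.094, adjusted p = 0.974) in the co-exposed groups. Its partner Chaf1a rose by 0.19 at KBrO3 4 hr and by 0.69 and 0.65 at 24 hr. Its 4 hr call was lost in 5 of the 6 fits without 1 array (adjusted p 0.0545 to 0.124). Uhrf1, which carries DNA methylation through replication, fell by 0.19 at KBrO3 4 hr and rose by 0.14 at KBrO3 + BPA 24 hr. The fall was also seen with a second probe, -0.51 (adjusted p = 1.52e-06), but turned to 0.060 with normexp. The rise was lost when any of 3 single arrays was left out (adjusted p 0.0946 to 0.113) and read -0.020 (adjusted p = 0.742) with the second probe. Tipin, a fork protection factor, rose in all 4 comparisons by 0.28 to 0.69, and its partner Timeless fell by 0.18 at KBrO3 4 hr and rose by 0.22 at KBrO3 + BPA 24 hr. The Timeless fall turned to 0.061 with normexp, and a second probe passed in neither, with -0.044 (adjusted p = 0.665) and 0.12 (adjusted p = 0.242).

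Licensing genes fell and polymerase genes rose from 4 to 24 hr. With KBrO3 alone 26 of the 49 genes rose and 17 fell between the times, where 33.8% of all genes rose and 43.9% fell. With KBrO3 + BPA 30 rose and 16 fell, where 37% of all genes rose and 47.5% fell. These 2 comparisons share no array. In neither do the 4 hr and 24 hr arrays share a slide, and with KBrO3 slide and time cannot be told apart. With slide as a random block 20 genes rose and 17 fell with KBrO3. With slide as a fixed block 28 rose and 17 fell with KBrO3 + BPA. All 8 polymerase and primase genes rose and all 4 licensing genes fell in both, and 24 genes rose in both and 15 fell in both, where 27.6% of all genes rose in both and 34.5% fell in both. Among the polymerase and primase genes, a second Prim2 probe fell with KBrO3 + BPA, -0.84 (adjusted p = 0.000505). The Prim1 rise was lost with KBrO3 without KBrO3 24 hr replicate 3 (adjusted p = 0.0649). The Pola1 rise was lost with KBrO3 + BPA when any of 3 single arrays was left out, with a value of 0.13, adjusted p = 0.0831 without KBrO3 + BPA 24 hr replicate 3. Mcm7 alone of the 49 was called in opposite directions, as 3.31% of all genes were in its order: -0.24 (SE 0.047, adjusted p = 0.000485) with KBrO3 and 0.26 (SE 0.047, adjusted p = 0.000214) with KBrO3 + BPA. The largest rise was that of Tk1, 2.1 (SE 0.066, adjusted p = 4.65e-11) and 2.48 (SE 0.066, adjusted p = 9.22e-12). Pole2 rose by 1.52 and 0.99, Pola2 by 1.2 and 1.31 and Rfc5 by 0.94 and 1.2. Orc1 fell furthest, with differences of -1.55 (SE 0.048, adjusted p = 4.31e-11) and -1.72 (SE 0.048, adjusted p = 1.49e-11), and differences were also negative for Cdt1 (-1.18 and -0.69), Ccne2 (-1.1 and -1.05) and Ccne1 (-0.97 and -1.0).

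Several of the smaller falls between the times depended on scaling. With KBrO3 the split of 26 and 17 became 34 and 12 under quantile normalization, where Mcm4, Mcm7, Mcm10 and Tipin changed sign. Of all genes 41.5% rose at that setting and 35.9% fell. With KBrO3 + BPA the split of 30 and 16 became 34 and 6 with median scaling, where Mcm2, Mcm3, Mcm4, Mcm10, Rpa2 and Tipin changed sign and the median of all genes moved to 0.30. Of all genes 51.6% rose at that setting and 29.2% fell. Median scaling, quantile normalization and normexp turned the sign of no licensing gene and no polymerase or primase gene in either comparison.

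Adding BPA to KBrO3 shifted these genes by small amounts. At 4 hr 12 of 49 were higher and 16 lower with BPA than with KBrO3 alone, where 28% of all genes were higher and 32.9% lower, and the median difference was -0.071 beside -0.020 over all genes. Cdc7 changed by -0.72 (SE 0.18, adjusted p = 0.00588), Tk1 by -0.67 (SE 0.066, adjusted p = 6.03e-06) and Rrm1 by -0.61 (SE 0.052, adjusted p = 2.12e-06). Rfc4 rose by 0.44 (SE 0.044, adjusted p = 7.66e-06), Mcm2 by 0.41 (SE 0.045, adjusted p = 1.41e-05) and Pole2 by 0.40 (SE 0.15, adjusted p = 0.0452), whose call was lost in all 6 fits without 1 array (adjusted p 0.0624 to 0.113). The calls of Mcm7, Cdc45, Pold2, Rfc1, Rpa1, Rrm2 and Cdc6 were also lost in at least 1 such fit. The other 2 Cdc7 probes read -0.082 (SE 0.10, adjusted p = 0.504) and -0.019 (SE 0.17, adjusted p = 0.93), so the fall was seen with 1 of 3 probes. The 2 groups share no slide, so slide and treatment cannot be told apart. The split of 12 and 16 became 2 and 21 with median scaling, where 16.2% of all genes were higher and 39.2% lower. It became 16 and 9 under quantile normalization, where 29.3% and 32.5% were. With normexp 4 genes were called, where 6.76% of all genes were higher and 8.66% lower. With slide as a random block 14 were called.

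At 24 hr 19 genes were higher and 4 lower with BPA added, where 28.5% of all genes were higher and 22% lower, and the median difference was 0.094 beside 0.0047. Cdt1 rose by 0.53 (SE 0.051, adjusted p = 4.55e-06), Rfc2 by 0.49 (SE 0.064, adjusted p = 6.18e-05) and Chaf1b by 0.46 (SE 0.094, adjusted p = 0.0017). Tk1 changed by -0.30 (SE 0.066, adjusted p = 0.00294), Dbf4 by -0.29 (SE 0.068, adjusted p = 0.00374) and Rpa1 by -0.18 (SE 0.035, adjusted p = 0.00125), and Prim2 was the fourth, -0.14 (SE 0.042, adjusted p = 0.0186). Within the 1 slide that held 2 arrays of each group all 23 genes called kept their sign. The calls of Cdc6, Prim2, Tyms, Ccne1, Timeless and Rpa2 were lost in at least 1 fit without 1 array, and the Prim2 value turned to 0.033 with median scaling. The split of 19 and 4 became 27 and 0 with median scaling, where 37.5% of all genes were higher and 10.5% lower. It became 14 and 9 under quantile normalization, where 26.45% and 23.6% were. With slide as a fixed block 33 genes were called, and 9 when only the compared arrays were fitted. With normexp 1 was called, where 8.345% of all genes were higher and 5.96% lower.

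Cdc6, Mcm10, Pold2, Ccne1 and Timeless were higher with BPA at both times, and Prim2, Rpa1 and Tk1 lower at both, where 9.97% and 10.4% of all genes were so called. These comparisons share no array. Of these 8 genes only Mcm10 and Tk1 kept both calls in every fit without 1 array. Mcm7, Gins1, Prim1, Rfc1 and Chaf1b were lower at 4 hr and higher at 24 hr (9.13% of all genes), and Dbf4 was higher at 4 hr and lower at 24 hr (4.31%). Median scaling moves every gene of a comparison by the same amount. It took the median of all genes from -0.020 to -0.16 at 4 hr and from 0.0047 to 0.17 at 24 hr. Losses of small rises at 4 hr and of small falls at 24 hr follow from that shift. Under median scaling none of the 5 higher genes was still called at 4 hr, Cdc6 turning to -0.012, and the 3 lower genes were. At 24 hr the 5 higher genes were still called under that scaling and none of the 3 lower genes was, Prim2 turning to 0.033. For Cdc6 and Ccne1 a second probe read lower with BPA at 4 hr, -0.36 (SE 0.069, adjusted p = 0.000877) and -0.18 (SE 0.070, adjusted p = 0.0443). A second Timeless probe was called at neither time, 0.16 (adjusted p = 0.138) and 0.041 (adjusted p = 0.73), and a second Prim2 probe read 0.39 (adjusted p = 0.0641) at 4 hr. The test of the difference between the 2 times gave 20 genes whose BPA effect was more positive at 24 hr and 4 whose effect was more negative, where 31.4% and 26.2% of all genes were called. Cdc7 differed by 0.93 (SE 0.26, adjusted p = 0.0104), Chaf1b by 0.84 (SE 0.13, adjusted p = 0.000283) and Gins1 by 0.71 (SE 0.083, adjusted p = 3.25e-05). On the other side Dbf4 differed by -0.69 (SE 0.10, adjusted p = 0.00013), Rfc4 by -0.36 (SE 0.062, adjusted p = 0.00058) and Mcm2 by -0.35 (SE 0.063, adjusted p = 0.000737). Under median scaling the 20 and 4 became 34 and 0, where 46.2% and 10.8% of all genes were called. Under quantile normalization they became 12 and 9, where 29.99% and 27.2% of all genes were. With normexp 3 genes were called, beside 7.15% and 4.36% of all genes.

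**Figure D3:**
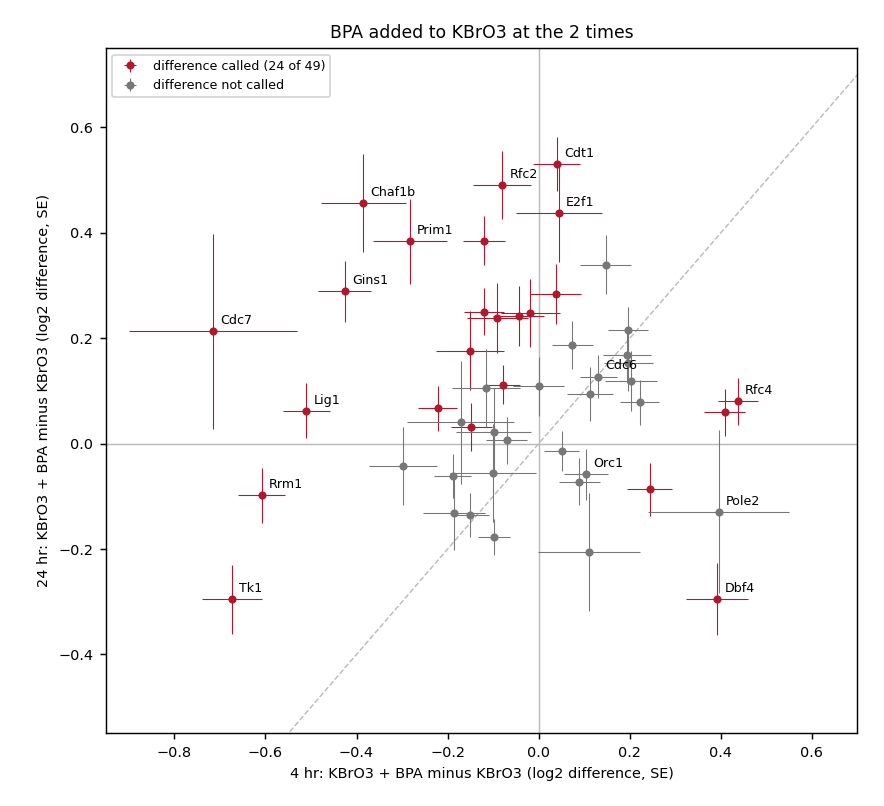
Log2 difference between KBrO3 + BPA and KBrO3 alone for the 49 genes at 4 hr (horizontal) and 24 hr (vertical), with standard errors. Cdc7 and Tk1 lie furthest left (-0.72 and -0.67), Rfc4 and Mcm2 furthest right, and Cdt1, Rfc2 and Chaf1b highest.

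None of the 49 genes was called with BPA alone. In the second set 0 of 49 were called at BPA 4 hr (3.05% of 15446 genes higher and 1.69% lower), 0 at BPA 24 hr (1.83% and 2.51%) and 0 between the times (1.26% and 3.08%) by limma with Benjamini-Hochberg adjustment, and the counts were 0 under every alternative run. At an unadjusted p below 0.05 there were 4 genes at BPA 4 hr (20.3% of all genes), 3 at BPA 24 hr (20.9%) and 8 between the times (21.3%). The second set was less precise for these genes, with a median standard error of 0.22 on the log2 scale against 0.054 in the first, so most differences of the size seen when BPA was added to KBrO3 would not be detectable at that spread.

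The 4 genes at BPA 4 hr were Rfc3, Rfc4, Tk1 and Chaf1a. Rfc4 read 3.45, 3.11 and 2.82 on the control arrays, 3.73, 4.02 and 3.74 on the BPA 4 hr arrays and 3.68, 3.29 and 3.1 on the BPA 24 hr arrays. All 3 BPA 4 hr arrays lay above control, and the difference was 0.70 (SE 0.23, adjusted p = 0.144). Tk1 read 3.47, 3.73 and 2.73 on the control arrays, 2.64, 2.67 and 2.54 on the BPA 4 hr arrays and 3.02, 2.55 and 2.77 on the BPA 24 hr arrays. All 3 BPA 4 hr arrays lay below control, with a difference of -0.69 (SE 0.27, adjusted p = 0.2) at 4 hr and -0.53 (SE 0.27, adjusted p = 0.34) at 24 hr. The 3 genes at BPA 24 hr were Mcm10, Gins1 and Gins4, whose BPA arrays all lay above control, by 0.48, 0.61 and 0.46. Orc1, the strongest riser after KBrO3, read -1.33, -0.81 and -1.29 on the control arrays, -0.80, -1.27 and -1.26 on the BPA 4 hr arrays and -1.0, -0.94 and -0.95 on the BPA 24 hr arrays, and its BPA arrays overlapped control, with differences of 0.033 (SE 0.22, adjusted p = 0.948) and 0.18 (SE 0.22, adjusted p = 0.71). Between the times the lowest adjusted p was that of Chaf1a, 0.88 (SE 0.22, adjusted p = 0.0606).

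**Figure D4:**
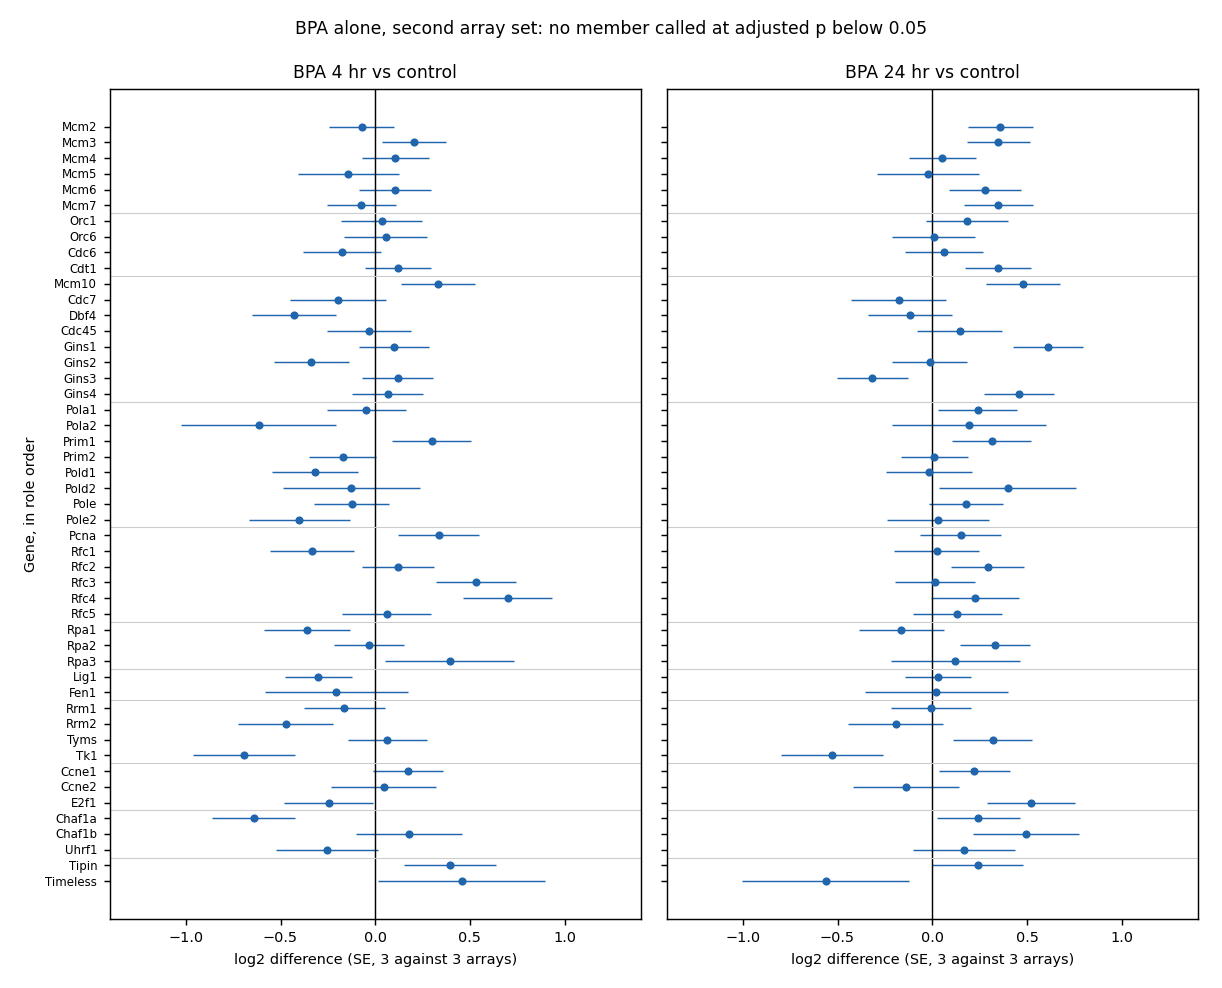
Log2 difference from the second-set control with its standard error for the 49 genes at BPA 4 hr and BPA 24 hr. None passes adjusted p below 0.05, and the medians over the 49 genes are -0.035 and 0.15.

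Under the stricter thresholds of the methods' call rule (a fold change over 1.5 with a p under 0.01 after Bonferroni correction) fewer of the 49 genes passed. They were set here on the limma p-values, while the methods took p from an error-weighted analysis of variance. At KBrO3 4 hr 17 genes passed, 14 higher and 3 lower, where 31.2% of all genes passed, and at KBrO3 + BPA 4 hr 21 passed, 16 higher and 5 lower (35.9%). At KBrO3 24 hr 11 passed, all higher (20%), and at KBrO3 + BPA 24 hr 13 passed, all higher (23.9%). Between the times 13 passed with KBrO3 (29.7%) and 19 with KBrO3 + BPA (34.6%). For BPA added to KBrO3 1 gene passed at 4 hr (6.04%), 0 at 24 hr (7.46%) and 0 for the difference between the times (4.93%). For BPA alone 0 passed at 4 hr (0.117%), at 24 hr (0.0324%) and between the times (0.0518%).

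Lists of related genes were counted beside the 49. Of 52 other replication and S phase genes 21 rose and 23 fell at KBrO3 4 hr (40.4% and 44.2%, where 34.6% and 38% of all genes did), and 21 and 20 at KBrO3 + BPA 4 hr (40.4% and 38.5%, where 39.8% and 40.7% did), shares near those of all genes. At KBrO3 24 hr 37 rose and 6 fell (31.3% and 38.2% of all genes), and at KBrO3 + BPA 24 hr 36 and 6 (34.5% and 38%). Cdkn1a, the p21 gene, rose most at 4 hr, by 3.08 on the log2 scale with KBrO3 and 2.92 with KBrO3 + BPA, and Cdkn1b, the p27 gene, fell most, by 2.14 and 2.2. At KBrO3 + BPA 24 hr Cdkn1a was still 2.78 above control and 1.65 above KBrO3 24 hr. Beside the same shares of all genes, of 30 mitosis genes 27 fell at KBrO3 4 hr, 29 fell at KBrO3 + BPA 4 hr, 28 rose at KBrO3 24 hr, and 10 rose and 14 fell at KBrO3 + BPA 24 hr. With BPA added, 25 of the 30 were lower than with KBrO3 alone at 4 hr and 28 at 24 hr, where 32.9% and 22% of all genes were, while the 49 replication genes moved both ways. BPA alone lowered 3 of the 30 at 4 hr (Ect2, Kif23 and Cenpf) and 1 at 24 hr (Kif23), where 1.69% and 2.51% of all genes were lower. The difference between the replication and mitosis lists was not tested.

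**Figure D5:**
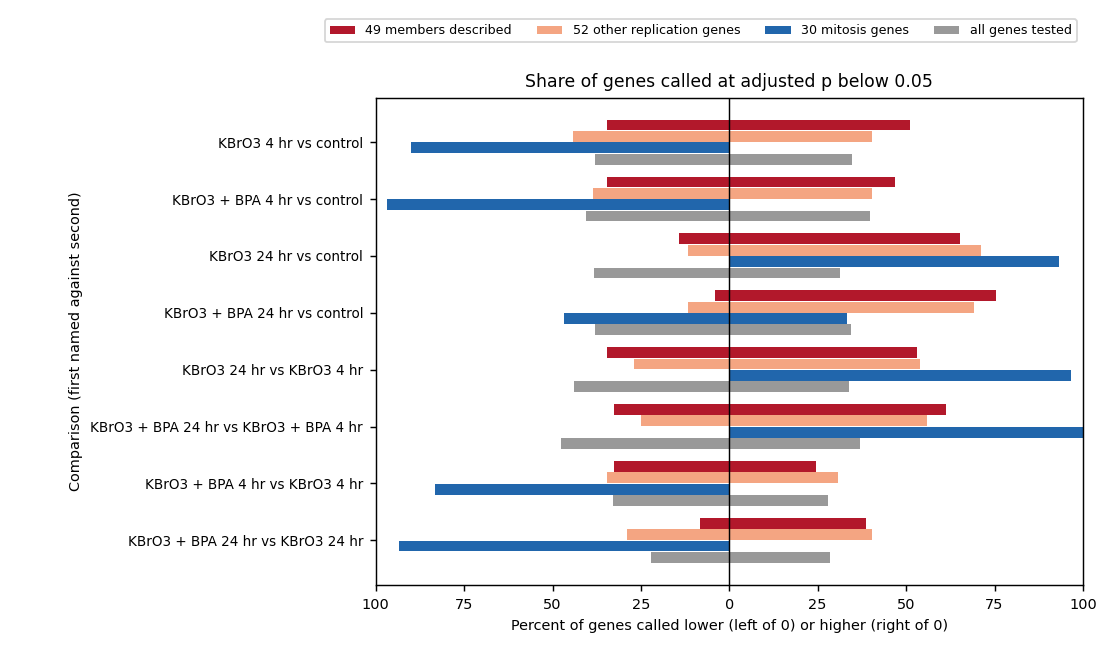
Share of genes called higher and lower in the first-set comparisons with control, between the times and of KBrO3 + BPA with KBrO3. Bars are for the 49 genes, the 52 other replication and S phase genes, the 30 mitosis genes and all genes tested. In the KBrO3 and KBrO3 + BPA 4 hr groups 27 and 29 of the 30 mitosis genes are lower than control while the 49 genes split between higher and lower.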

How the data were processed

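The 49 genes and the lists beside them were chosen with earlier results of these data known. RNA of 24 cultures was labelled with Cy3 and hybridised to one-color arrays of 41174 probes. The authors deposited scanner output: spot intensity as background-subtracted processed signal from Feature Extraction (9.5.3.1 for the first set, 12.0.0.7 for the second). The deposited series table holds the same values. From these, log2 intensity minus the array's 75th percentile over non-control spots was computed, outlier spots were left out and spots of a probe averaged. Probes entered the test if all arrays of some group in the set showed them well above background. Group means were fitted per set with limma 3.58.1 (R 4.3.3; Python 3.11.15 for tables), two-sided, with Benjamini-Hochberg adjustment, and a gene was called at adjusted p below 0.05. Where a gene had several probes, the brightest on average over the arrays stands for it. Values on every array are given for Mcm2, Mcm5, Mcm6, Cdc6, Pcna, Rrm2, Ccne1, Ccne2 and E2f1. They are also given for the 3 called genes with the largest rise and fall in each first-set comparison, or fewer where fewer were called. Rfc4, Tk1 and Orc1 in the second set, the mitosis gene Cenpf, and the single genes named under an unadjusted p, were chosen after their values were seen. Of the other lists, Cenpf and the cell type markers apart, at most the 2 genes with the largest rise and fall per comparison are named. Each slide holds up to 4 arrays, and groups mostly lie on different slides. The 13 alternatives were median scaling, quantile normalization, normexp (offset 50; second set on the median signal, which its files hold in place of the mean), 2 filters, the mean of a gene's probes (each centred first), slide as a fixed or random block, the replicate number as a block, only the compared arrays, the series table, the methods' call rule and leaving out each array. For arrays, the number per group limits the precision.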

Additional observations from a re-analysis of the deposited data

Results flagged for a closer look

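The effect of adding BPA to KBrO3 differed between 4 hr and 24 hr for 24 of the 49 genes by the interaction term of the limma fit (adjusted p below 0.05). Given as the log2 effect at 24 hr minus that at 4 hr, it was more positive at 24 hr for Cdc7 (0.93), Chaf1b (0.84), Gins1 (0.71), Prim1 (0.67), Lig1 (0.57), Rfc2 (0.57), Rrm1 (0.51), Mcm7 (0.51), Cdt1 (0.49), E2f1 (0.39), Tk1 (0.38), Rfc1 (0.37), Rpa2 (0.33), Gins2 (0.33), Mcm4 (0.29), Mcm6 (0.29), Rfc5 (0.27), Pold1 (0.25), Tyms (0.19) and Cdc45 (0.18). It was more negative at 24 hr for Dbf4 (-0.69), Rfc4 (-0.36), Mcm2 (-0.35) and Gins3 (-0.33). Of all genes tested 31.4% and 26.2% were called in these directions. Across the scaling settings Mcm6 and Tyms changed sign under quantile normalization, 2 other Cdc7 probes gave -0.051 and -0.28, neither of which passed, a second Tyms probe gave -1.39 while the remaining one gave 0.32 (adjusted p = 0.000786), and a second E2f1 probe gave 0.013 (adjusted p = 0.907), so those differences rest on the setting or the probe. The calls of Cdc45, E2f1, Rfc5, Pold1 and Gins2 were lost in 10, 6, 7, 4 and 2 fits without 1 array.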

How the results depend on the processing

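With median scaling the median log2 difference of the 49 genes was 0.51 for KBrO3 24 hr vs control, -0.10 for KBrO3 + BPA 4 hr vs control, 0.71 for KBrO3 + BPA 24 hr vs control, -0.21 for KBrO3 + BPA 4 hr vs KBrO3 4 hr, 0.26 for KBrO3 + BPA 24 hr vs KBrO3 24 hr, 0.34 for KBrO3 24 hr vs KBrO3 4 hr, 0.75 for KBrO3 + BPA 24 hr vs KBrO3 + BPA 4 hr, 0.44 for the added BPA effect at 24 minus 4 hr, 0.26 for BPA 24 hr vs control and 0.31 for BPA 24 hr vs BPA 4 hr. With quantile normalization the median log2 difference of the 49 genes was 0.013 for KBrO3 4 hr vs control, 0.46 for KBrO3 24 hr vs control, -0.018 for KBrO3 + BPA 4 hr vs control, 0.012 for KBrO3 + BPA 4 hr vs KBrO3 4 hr, -0.0011 for KBrO3 + BPA 24 hr vs KBrO3 24 hr, 0.36 for KBrO3 24 hr vs KBrO3 4 hr, 0.39 for KBrO3 + BPA 24 hr vs KBrO3 + BPA 4 hr, 0.00069 for the added BPA effect at 24 minus 4 hr and 0.065 for BPA 24 hr vs control. With normexp the median log2 difference of the 49 genes was 0.37 for KBrO3 4 hr vs control, 0.59 for KBrO3 24 hr vs control, 0.30 for KBrO3 + BPA 4 hr vs control, 0.65 for KBrO3 + BPA 24 hr vs control, 0.23 for KBrO3 24 hr vs KBrO3 4 hr, 0.23 for BPA 24 hr vs control and 0.36 for BPA 24 hr vs BPA 4 hr. Under median scaling the median of all genes moved by nearly the same amount as that of the 49 genes. The 49 genes stayed 0.43 above it for KBrO3 24 hr vs control and 0.46 for KBrO3 + BPA 24 hr vs control, as in the main fit. With slide as a fixed block the median log2 difference of the 49 genes was 0.13 for KBrO3 4 hr vs control and 0.32 for BPA 24 hr vs BPA 4 hr. With slide as a random block the median log2 difference of the 49 genes was 0.14 for KBrO3 4 hr vs control, 0.083 for KBrO3 + BPA 4 hr vs control and 0.14 for KBrO3 24 hr vs KBrO3 4 hr. With the mean of a gene's probes the median log2 difference of the 49 genes was 0.25 for KBrO3 4 hr vs control, 0.11 for KBrO3 + BPA 4 hr vs control, -0.051 for KBrO3 + BPA 4 hr vs KBrO3 4 hr and 0.19 for the added BPA effect at 24 minus 4 hr. The number of genes called became, by the methods' call rule 17 for KBrO3 4 hr vs control, 11 for KBrO3 24 hr vs control, 21 for KBrO3 + BPA 4 hr vs control, 13 for KBrO3 + BPA 24 hr vs control, 1 for KBrO3 + BPA 4 hr vs KBrO3 4 hr, 0 for KBrO3 + BPA 24 hr vs KBrO3 24 hr, 13 for KBrO3 24 hr vs KBrO3 4 hr, 19 for KBrO3 + BPA 24 hr vs KBrO3 + BPA 4 hr and 0 for the added BPA effect at 24 minus 4 hr; with normexp 4 for KBrO3 + BPA 4 hr vs KBrO3 4 hr, 1 for KBrO3 + BPA 24 hr vs KBrO3 24 hr and 3 for the added BPA effect at 24 minus 4 hr; with slide as a random block 14 for KBrO3 + BPA 4 hr vs KBrO3 4 hr; with only the compared arrays 9 for KBrO3 + BPA 24 hr vs KBrO3 24 hr. Of the 5763 values of the 49 genes under an alternative, over 324 calls, 5083 kept direction and side of the threshold, 637 kept direction alone and 43 turned sign: quantile normalization gave -0.11 for Mcm4 in KBrO3 4 hr vs control, 0.051 for Mcm6 in KBrO3 24 hr vs control, 0.012 for Mcm7 in KBrO3 + BPA 4 hr vs KBrO3 4 hr, -0.0067 for Tyms in KBrO3 + BPA 24 hr vs KBrO3 24 hr, 0.011 for Mcm4 in KBrO3 24 hr vs KBrO3 4 hr, 0.29 for Mcm7 in KBrO3 24 hr vs KBrO3 4 hr, 0.13 for Mcm10 in KBrO3 24 hr vs KBrO3 4 hr, 0.21 for Tipin in KBrO3 24 hr vs KBrO3 4 hr, 0.068 for Mcm4 in KBrO3 + BPA 24 hr vs KBrO3 + BPA 4 hr, -0.051 for Mcm6 in the added BPA effect at 24 minus 4 hr and -0.016 for Tyms in the added BPA effect at 24 minus 4 hr; normexp background correction gave 0.038 for Mcm6 in KBrO3 4 hr vs control, 0.049 for Gins4 in KBrO3 4 hr vs control, 0.093 for Prim1 in KBrO3 4 hr vs control, 0.14 for Rfc4 in KBrO3 4 hr vs control, 0.019 for Lig1 in KBrO3 4 hr vs control, 0.060 for Uhrf1 in KBrO3 4 hr vs control, 0.061 for Timeless in KBrO3 4 hr vs control, 0.075 for Mcm4 in KBrO3 24 hr vs control, 0.15 for Mcm6 in KBrO3 24 hr vs control, 0.070 for Gins2 in KBrO3 24 hr vs control, 0.050 for Rfc1 in KBrO3 24 hr vs control, 0.0088 for Rfc2 in KBrO3 24 hr vs control, 0.077 for Prim2 in KBrO3 + BPA 4 hr vs control, 0.15 for Tyms in KBrO3 + BPA 4 hr vs control and 0.092 for Mcm4 in KBrO3 + BPA 24 hr vs control; mean of a gene's probes gave 0.026 for Prim2 in KBrO3 + BPA 4 hr vs control, 0.18 for Tyms in KBrO3 + BPA 4 hr vs control, -0.11 for Cdc6 in KBrO3 + BPA 4 hr vs KBrO3 4 hr, 0.12 for Prim2 in KBrO3 + BPA 4 hr vs KBrO3 4 hr, -0.070 for Tyms in KBrO3 + BPA 24 hr vs KBrO3 24 hr, -0.33 for Prim2 in KBrO3 + BPA 24 hr vs KBrO3 + BPA 4 hr, -0.091 for Tyms in KBrO3 + BPA 24 hr vs KBrO3 + BPA 4 hr and -0.29 for Tyms in the added BPA effect at 24 minus 4 hr; median scaling gave 0.10 for Mcm4 in KBrO3 + BPA 24 hr vs control, -0.012 for Cdc6 in KBrO3 + BPA 4 hr vs KBrO3 4 hr, 0.033 for Prim2 in KBrO3 + BPA 24 hr vs KBrO3 24 hr, 0.089 for Mcm2 in KBrO3 + BPA 24 hr vs KBrO3 + BPA 4 hr, 0.013 for Mcm3 in KBrO3 + BPA 24 hr vs KBrO3 + BPA 4 hr, 0.21 for Mcm4 in KBrO3 + BPA 24 hr vs KBrO3 + BPA 4 hr, 0.24 for Mcm10 in KBrO3 + BPA 24 hr vs KBrO3 + BPA 4 hr, 0.22 for Rpa2 in KBrO3 + BPA 24 hr vs KBrO3 + BPA 4 hr and 0.13 for Tipin in KBrO3 + BPA 24 hr vs KBrO3 + BPA 4 hr. The cause was not tested. Leaving out 1 array at a time gave these lowest and highest counts and medians: KBrO3 4 hr vs control 37 to 43, 0.15 to 0.23; KBrO3 24 hr vs control 36 to 40, 0.34 to 0.38; KBrO3 + BPA 4 hr vs control 40 to 41, 0.036 to 0.069; KBrO3 + BPA 24 hr vs control 36 to 39, 0.37 to 0.45; KBrO3 + BPA 4 hr vs KBrO3 4 hr 21 to 24, -0.075 to -0.055; KBrO3 + BPA 24 hr vs KBrO3 24 hr 17 to 29, 0.078 to 0.10; KBrO3 24 hr vs KBrO3 4 hr 40 to 45, 0.17 to 0.23; KBrO3 + BPA 24 hr vs KBrO3 + BPA 4 hr 45 to 47, 0.24 to 0.31; the added BPA effect at 24 minus 4 hr 19 to 33, 0.10 to 0.17; BPA 4 hr vs control 0 to 0, -0.061 to 0.016; BPA 24 hr vs control 0 to 0, 0.10 to 0.21; BPA 24 hr vs BPA 4 hr 0 to 0, 0.17 to 0.25. Replicate numbers did not pair the samples (mean correlation of same-numbered deviations -0.029 over 30 pairs and 0.0020 over 9), and with the number as a block the counts were 40 for KBrO3 4 hr vs control, 39 for KBrO3 24 hr vs control, 40 for KBrO3 + BPA 4 hr vs control, 38 for KBrO3 + BPA 24 hr vs control, 23 for KBrO3 + BPA 4 hr vs KBrO3 4 hr, 21 for KBrO3 + BPA 24 hr vs KBrO3 24 hr, 43 for KBrO3 24 hr vs KBrO3 4 hr, 46 for KBrO3 + BPA 24 hr vs KBrO3 + BPA 4 hr, 23 for the added BPA effect at 24 minus 4 hr, 0 for BPA 4 hr vs control, 0 for BPA 24 hr vs control and 0 for BPA 24 hr vs BPA 4 hr, with the medians as before.

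In a fit without 1 array the calls of some genes were lost: 5 genes at KBrO3 4 hr vs control, 4 at KBrO3 24 hr, 1 at KBrO3 + BPA 4 hr and 4 at KBrO3 + BPA 24 hr, 8 and 6 for BPA added at 4 and 24 hr, 3 and 1 between the times with KBrO3 and KBrO3 + BPA, and 5 for the difference in the added BPA effect. With 3 arrays a group the spread is set by few cultures, groups mostly lie on different slides, and the second set's larger spread limits what BPA alone can show. The filters on dim probes and the series table moved no count by over 1.5 times and no median by more than the spread between replicates.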
